A study of Mus musculus with 7 samples.

Results

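The telomere-proximal ends of the mouse autosomes were examined in single mouse zygotes for H3K4me1, the monomethylated lysine of histone H3 that marks enhancers and the flanks of active genes. The ends were taken by position alone, as the 10 kb bins in the last 2 Mb before the last fragment of each of chromosomes 1 to 19. This gave 200 bins at each of 19 ends, or 3800 of 240300 autosomal bins. Together they held 24205 of 1350584 autosomal fragments counted in bins, 1.79% of fragments on 1.58% of bins.

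The fragments came from CUT&Tag, in which an antibody tethers a transposase to the modified histone and the DNA cut there is sequenced. The zygotes were untreated. They came from females induced with 5 IU of PMSG and then 5 IU of hCG, were collected 23 after hCG with no unit given, and had lost their cumulus cells and zona to enzymes. Both H3K4me1 batches, each the zygotes of 1 mouse, were deposited as 1 pooled table, and its library names, which carry a 4 or a 5, are tied to neither batch. The parents' strains and ages are stated for the H3K27me3 zygotes of the series, which were not used here, and not for these. Of 16 libraries, 14 reached the minimum of 5000 fragments and were kept, 3 named 4 and 11 named 5. The shallowest, library 5-11, held 7106 fragments, the median was 96240 and the deepest, library 5-4, held 197312. With 1 pool there is no replicate, so no test between samples was possible. Intervals below are exact 95% intervals that cover counting error only, since amplified fragments without molecular identifiers are not independent molecules.

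Mouse chromosomes have their centromere at the very start of the sequence, so that the high-coordinate end leads, through subtelomeric sequence, into the telomere. Telomeres consist of a repeated hexamer bound by the shelterin complex. In many cell types the chromatin at and beside them carries marks of heterochromatin. Distal ends differ widely in content, from stretches dense in housekeeping and signalling genes to clusters of receptor genes that are silent in most tissues.

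The content of the ends is shown by 5 promoters, each 250 bases before to 50 after the gene's start, taken from RefSeq on GRCm38.p6, which is the mm10 build named in the submitters' processing notes. CpG dinucleotides are in capitals. Ogfr, the opioid growth factor receptor, lies on chromosome 2 (chr2:180589157-180589456, plus strand) and had the highest gene level of all ends among genes with at least 20 fragments. Dvl1, a cytoplasmic transducer of Wnt signals, lies on chromosome 4 (chr4:155847152-155847451, plus strand) and had the highest level there under the same minimum. Fgf4, a fibroblast growth factor made by early embryos, lies on chromosome 7 (chr7:144861136-144861435, plus strand). The last gene of chromosome 12, Tmem196 (chr12:119945877-119946176, plus strand), had the lowest level among long genes. The odorant receptor gene Olfr826 of chromosome 10 (chr10:130180829-130181128, minus strand) had 1 fragment and a level of 0.299 (0.00758 to 1.67), too few to place it. Olfr826 was taken as the odorant receptor gene nearest the end with a sequence.
Ogfr: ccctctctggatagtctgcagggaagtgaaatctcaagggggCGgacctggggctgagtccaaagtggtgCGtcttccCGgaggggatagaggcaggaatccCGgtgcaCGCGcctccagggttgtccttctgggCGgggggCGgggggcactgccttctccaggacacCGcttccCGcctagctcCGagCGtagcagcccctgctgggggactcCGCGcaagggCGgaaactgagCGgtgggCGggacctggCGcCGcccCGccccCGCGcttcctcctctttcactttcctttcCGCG
Dvl1: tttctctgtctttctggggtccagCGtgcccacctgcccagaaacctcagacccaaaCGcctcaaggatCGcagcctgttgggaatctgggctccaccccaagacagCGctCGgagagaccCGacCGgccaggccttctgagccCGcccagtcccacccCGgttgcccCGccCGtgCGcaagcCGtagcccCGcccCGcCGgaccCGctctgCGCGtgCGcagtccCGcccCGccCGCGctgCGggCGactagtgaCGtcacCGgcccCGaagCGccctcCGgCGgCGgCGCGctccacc
Fgf4: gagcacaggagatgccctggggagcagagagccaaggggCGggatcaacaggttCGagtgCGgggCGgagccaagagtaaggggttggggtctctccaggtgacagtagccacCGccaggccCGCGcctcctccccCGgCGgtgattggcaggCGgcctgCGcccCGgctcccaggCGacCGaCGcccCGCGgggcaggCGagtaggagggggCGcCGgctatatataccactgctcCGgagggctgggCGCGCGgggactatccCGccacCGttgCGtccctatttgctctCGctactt
Tmem196: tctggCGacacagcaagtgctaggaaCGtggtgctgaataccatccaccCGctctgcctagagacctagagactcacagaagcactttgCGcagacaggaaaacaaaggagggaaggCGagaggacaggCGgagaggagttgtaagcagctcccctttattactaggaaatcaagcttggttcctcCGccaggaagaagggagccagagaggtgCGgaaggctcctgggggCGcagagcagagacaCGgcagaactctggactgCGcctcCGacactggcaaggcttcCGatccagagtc
Olfr826: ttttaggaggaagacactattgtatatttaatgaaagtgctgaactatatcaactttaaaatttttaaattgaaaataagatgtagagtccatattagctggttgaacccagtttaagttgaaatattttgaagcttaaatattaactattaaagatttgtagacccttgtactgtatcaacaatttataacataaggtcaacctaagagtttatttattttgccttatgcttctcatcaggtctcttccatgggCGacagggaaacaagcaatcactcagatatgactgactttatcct

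These 300 bases held 24 CpG in Ogfr, 35 in Dvl1, 28 in Fgf4, 13 in Tmem196 and 1 in Olfr826. Of all autosomal protein-coding genes with a promoter sequence, 27.8% had at least as many as Ogfr, 9.12% at least as many as Dvl1 and 19.2% at least as many as Fgf4, while 53.0% had at least as many as Tmem196 and most had more than Olfr826. Promoters of the ends as a whole had the same median as those elsewhere. Of 504 protein-coding genes there, 405 had a sequence, with a median of 14 CpG, against 14 over 16051 genes elsewhere on the autosomes. Without odorant (Olfr) and vomeronasal (Vmn) receptor genes the medians were 17 in the ends and 16 elsewhere. Shares with 10 or more CpG were then 68.8% (63.6% to 73.6%) and 63.3% (62.5% to 64.1%). The telomeric hexamer TTAGGG, searched on both strands, was found in 9.88% of promoters of the ends (7.15% to 13.2%), in 10.4% of those elsewhere (9.92% to 10.9%) and in 10.4% of all.

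The level of a stretch is its density of fragments divided by the autosomal mean, 5.62 fragments in 10 kb. Without a background control in use here, a level holds signal from the mark and from other sources together. Pooled over the 19 ends, the last 2 Mb had 1.13 times the level of the rest of the same chromosomes (1.12 to 1.15). All 13 libraries above 20000 fragments had a ratio above 1, from 1.07 in library 5-4 to 1.24 in library 4-5, and the shallow library 5-11 had 2.15. Over the 19 ends together this excess lay largely in the last 10 kb. It did not do so at every end, and those of chromosomes 4, 7, 11 and 15 held 11, 8, 1 and 7 fragments there. With the last 10 kb left out, a setting chosen after seeing the data, the pooled ratio was 1.05 (1.03 to 1.06). Leaving out 1 chromosome moved it between 1.01, without chromosome 4, and 1.08, without chromosome 17. In this setting the 13 libraries ranged from 0.957 to 1.15 with a median of 1.05. In 6 libraries the interval lay above 1 and in 0 it lay below.

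The last kilobase before the last fragment held 1831 fragments over the 19 autosomes, 171 times the autosomal mean (164 to 179). The next 9 kb held 78 fragments, a level of 0.812 (0.642 to 1.01). Chromosome 12 had 514 fragments in its last kilobase, chromosome 10 had 388 and chromosome 16 had 320, and these 3 ends gave 66.7% of the total. Chromosomes 14, 2, 3, 19, 18, 13, 17 and 8 had 149, 111, 75, 67, 53, 46, 39 and 27 fragments, and chromosomes 5, 6 and 1 had 14, 14 and 8. Chromosome 9 had 2 fragments, and chromosomes 4, 7, 11 and 15 had 1 each, which by construction is the least possible, because the window ends at the last fragment. The last kilobase thus held a large pile-up at some ends and none at 5 others.

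These terminal fragments were short and lay on top of each other. Their median length was 51 bp, and 93.8% were under 100 bp (92.6% to 94.9%), against 2.86% in the rest of the autosomes (2.83% to 2.89%). Between 1 kb and 2 Mb from the end the share was 2.51% (2.31% to 2.73%), with a median length of 325 bp, against 322 bp in the rest. At 10 ends a single library stacked over 4 fragments on 1 base, with up to 37 on chromosome 12 and 31 on chromosome 10. Piles of such short fragments also occurred elsewhere on the autosomes, but were rarer there. Of the 3800 bins of the ends, 7 lay above 10 times the mean, 0.184% (0.0741% to 0.379%), all of them last bins. Elsewhere 23 of 236500 did, 0.00973% (0.00617% to 0.0146%). In those 23 bins 91.8% of fragments were under 100 bp (90.9% to 92.6%) with a median of 51 bp. The sequence of these bases was not used here, and whether reads of repeated sequence gathered there was not tested.

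The number of terminal fragments did not follow the depth of the library. Over the last kilobases the deepest library, 5-4, had 156 fragments and the shallowest, 5-11, had 159, although their depths were 197312 and 7106. The lowest count was 63, in library 5-6 of 166370 fragments, and the highest was 226, in library 5-5 of 106119. Per 10000 fragments this is 3.79 in library 5-6 (2.91 to 4.84), 21.3 in library 5-5 (18.6 to 24.3) and 224 in library 5-11 (191 to 261). The other libraries lay between 6.87 and 23.9. In library 5-11 the last 10 kb accounted for its high ratio, since without them its ends lay at 0.658 of the rest (0.513 to 0.831).

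**Figure D1:**
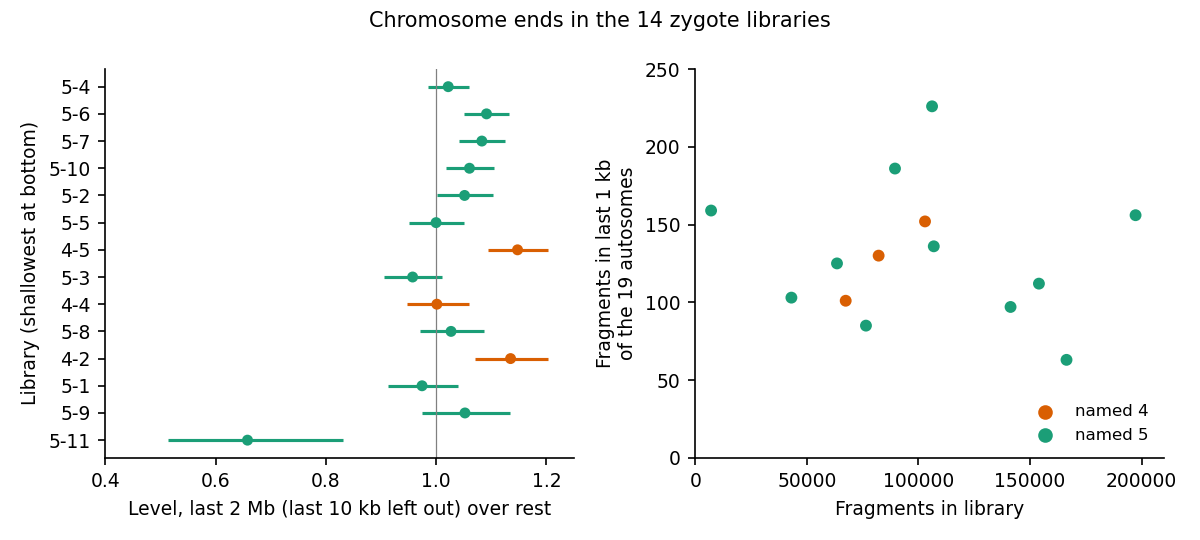
Left, the level of the last 2 Mb over that of the rest of the same chromosomes in each of the 14 libraries, last 10 kb left out, with 95% intervals for counting error the shallowest library at the bottom, orange for libraries named 4 and green for those named 5. Right, the number of fragments in the last 1 kb of the 19 autosomes against the depth of the library; it lies between 63 and 226 with no rise from the shallowest library, at 159, to the deepest, at 156.

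Behind this narrow pile-up the level of H3K4me1 fragments was low and rose inward. It was 0.690 (0.638 to 0.744) between 10 and 100 kb from the end and 0.806 (0.753 to 0.862) between 100 and 200 kb. It reached 1.00 (0.942 to 1.06) between 400 and 500 kb. Over the stretch from 1 to 2 Mb it was 1.17 (1.15 to 1.19), and from 2 to 5 Mb it was 1.24 (1.22 to 1.25). From 5 to 10 Mb it was 1.23 (1.22 to 1.24). The gradient did not end in a flat level. From 2 to 3 Mb the level was 1.32 (1.30 to 1.34), and from 3 to 4 Mb it was 1.23 (1.21 to 1.25). From 4 to 5 Mb it was 1.16 (1.14 to 1.18), close to that from 1 to 2 Mb.

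The outer 1 Mb, last 10 kb left out, thus lay at 0.753 times the stretch from 2 to 5 Mb (0.736 to 0.769). This contrast was not among the comparisons set beforehand, and its inner stretch includes the high part from 2 to 3 Mb. All 13 libraries above 20000 fragments were lower in the outer stretch. Leaving out 1 chromosome gave 0.725 to 0.773. The outer stretch was lower on 15 chromosomes, all with intervals below 1, and most of all on chromosome 14, at 0.365 times the inner stretch (0.317 to 0.417), and chromosome 10, at 0.482 (0.430 to 0.539). It was higher on chromosomes 17, 18, 2 and 7, with 1.49, 1.31, 1.13 and 1.12 times the inner stretch and intervals above 1.

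Gene density ran the other way. Protein-coding genes, placed by their midpoints, numbered 14.1 per Mb in the outer 1 Mb, 12.5 per Mb from 1 to 2 Mb and 10.4 per Mb from 2 to 5 Mb. Against bins of the same chromosome in the same class of gene density, the outer 1 Mb had a ratio of 0.869 (0.852 to 0.886). With the last 10 kb included the ratio was 1.03 (1.01 to 1.05), above 1. Neither ratio was recomputed without chromosome 10, whose last 2 Mb held 84 of the 504 protein-coding genes of the ends. Empty bins were more frequent near the end, with 6.01% of bins in the outer 1 Mb (4.98% to 7.18%) and 3.09% from 2 to 5 Mb (2.65% to 3.57%). With empty bins left out, the level was 0.990 (0.971 to 1.01) in the outer 1 Mb and 1.28 (1.26 to 1.29) from 2 to 5 Mb. Unsequenced and repeated bases were not identified here, and their part in the gradient was not tested beyond this.

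**Figure D2:**
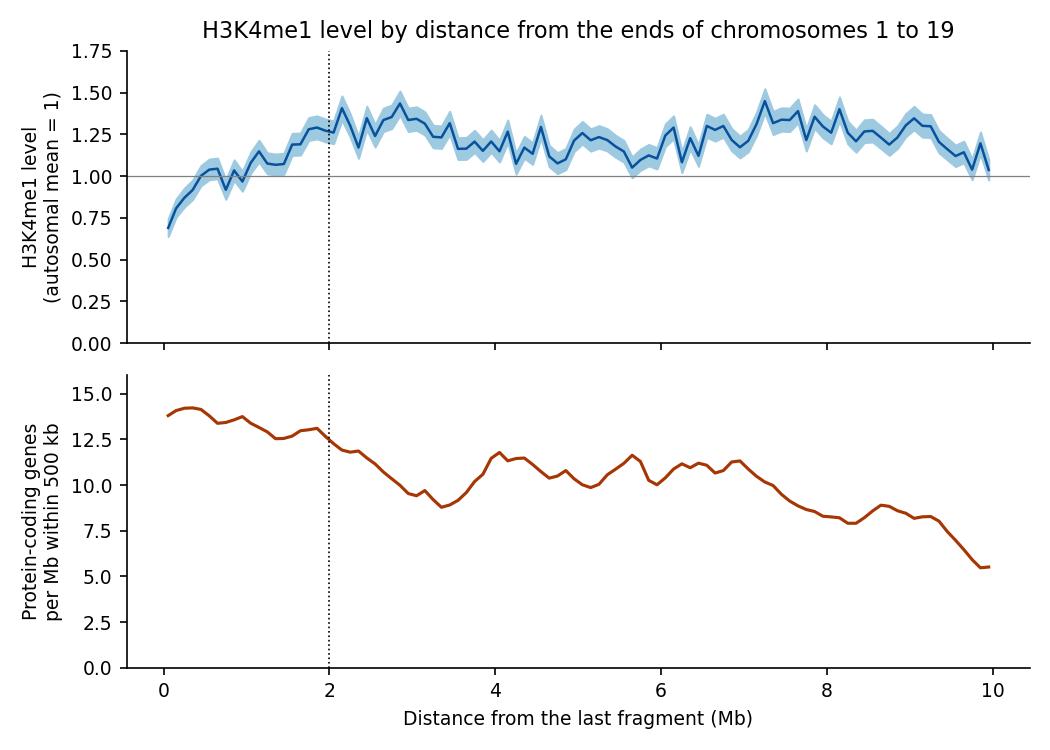
Top, the level of H3K4me1 fragments in steps of 100 kb by distance from the last fragment, over chromosomes 1 to 19, with the 95% interval for counting error as a band; the first step runs from 10 to 100 kb and the dotted line marks 2 Mb. Bottom, the mean number of protein-coding genes per Mb within 500 kb; the level starts at 0.690 and rises inward while gene density is highest near the end.

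The 19 ends differed from each other more than the ends as a group differed from the rest. All values that follow leave out the last 10 kb. In 7 ends the interval of the ratio to the rest of the chromosome lay above 1, in 7 it lay below, and in 5 it spanned 1. Chromosome 4 had a ratio of 1.71 (1.63 to 1.78), and its libraries above 20000 fragments ranged from 1.24 to 2.33 with a median of 1.63. Chromosome 2 had 1.64 (1.57 to 1.71), with libraries from 1.28 to 2.22 and a median of 1.64. Chromosome 7 had 1.62 (1.55 to 1.70), with libraries from 1.01 to 2.13 and a median of 1.61. On these 3 chromosomes all 13 libraries lay above 1. Chromosomes 16 and 11 followed with 1.37 (1.30 to 1.44) and 1.30 (1.24 to 1.37), each above 1 in 12 of 13 libraries. Chromosome 15 had 1.15 (1.09 to 1.21) and chromosome 5 had 1.07 (1.01 to 1.13).

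At the low end stood chromosome 17 with a ratio of 0.529 (0.489 to 0.572), where libraries ranged from 0.284 to 0.644 with a median of 0.494. Chromosome 13 had 0.580 (0.536 to 0.627), with libraries from 0.325 to 0.690 and a median of 0.620. On both, all 13 libraries lay below 1. Chromosomes 18, 3, 14, 12 and 10 had ratios of 0.667, 0.711, 0.733, 0.826 and 0.836, each with its interval below 1. The ratios of chromosomes 1, 8, 6, 9 and 19 lay between 0.959 and 1.04. With the last 10 kb included, chromosomes 10 and 12 stood at 1.21 and 1.31, on the other side of 1.

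Among all non-overlapping windows of 2 Mb on its own chromosome, counted back from the end, the end of chromosome 7 ranked 2 of 71 from the top, that of chromosome 4 ranked 6 of 76, that of chromosome 11 ranked 7 of 59 and that of chromosome 2 ranked 8 of 89. The end of chromosome 13 ranked 55 of 58 and that of chromosome 17 ranked 40 of 45. For comparison, the first 2 Mb from near the first fragment, on the side of the centromere, had a level of 1.00 (0.991 to 1.02). Over the 19 autosomes this fragment starts between position 3000362, on chromosome 3, and 3104818, on chromosome 10. The last 2 Mb, last 10 kb left out, had 1.05 (1.04 to 1.06), a ratio of 1.04 (1.03 to 1.06). Nothing was left out of the first 2 Mb. Protein-coding genes numbered 11.8 per Mb there and 13.3 per Mb in the last 2 Mb.

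**Figure D3:**
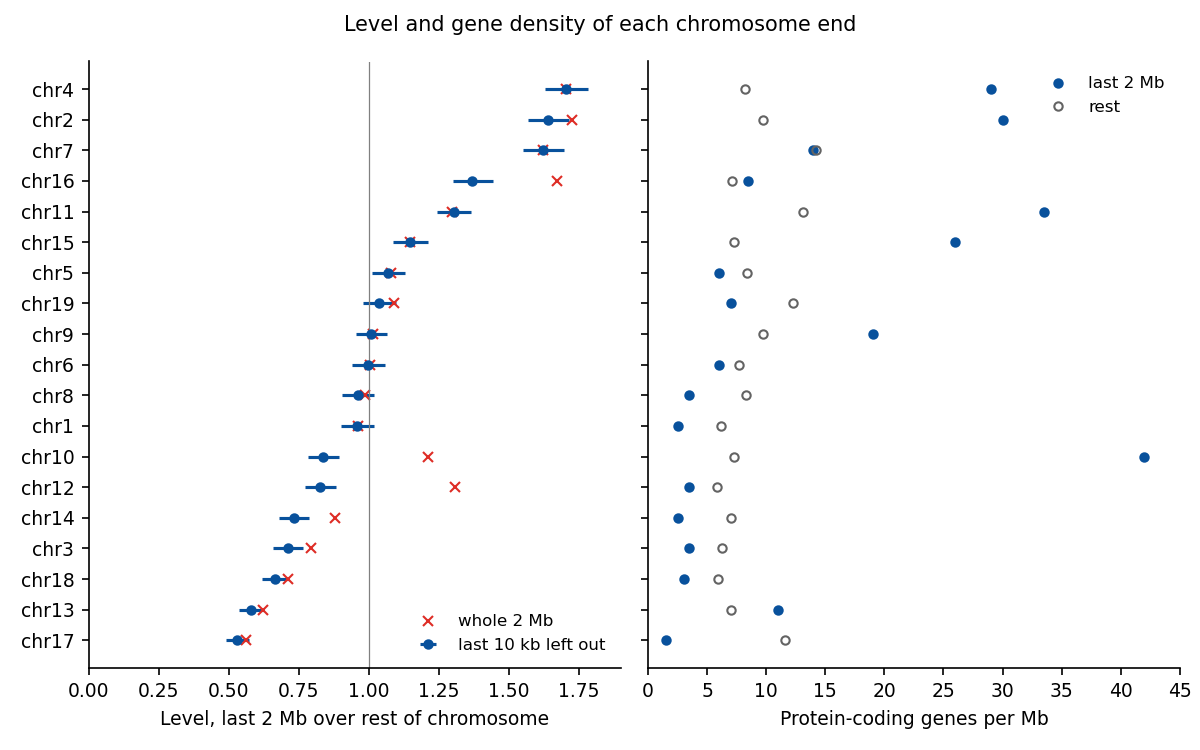
Left, the level of the last 2 Mb over that of the rest of the same chromosome for chromosomes 1 to 19, as points with 95% intervals with the last 10 kb left out and as crosses for the whole 2 Mb. Right, protein-coding genes per Mb in the last 2 Mb (filled) and in the rest (open); the ends run from 1.71 on chromosome 4 down to 0.529 on chromosome 17, and chromosome 10 has the densest end, with 42 genes per Mb.

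Gene density accompanied the order of the ends in part. Of the 19 ends, 8 were denser in protein-coding genes than the rest of their chromosome and 11 were not. Across the ends, level and genes per Mb had a Pearson r of 0.548 and a Spearman rho of 0.643 (n = 19 ends, all from the same libraries). Without chromosome 10 they were 0.777 and 0.790. The ends of chromosomes 4, 2 and 11 held 29, 30 and 33.5 genes per Mb, and their rests held 8.22, 9.73 and 13.1. At the low side, chromosome 17 held 1.5 genes per Mb in its end and 11.6 in the rest, whereas chromosome 13 held 11 in its end and 7.0 in the rest.

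When each bin was set against bins of the same chromosome in the same class of gene density, the 19 ends together had a ratio of 1.05 (1.04 to 1.07) over the whole 2 Mb and of 0.976 (0.964 to 0.989) with the last 10 kb left out, on the other side of 1. The second value was 0.941 without chromosome 7 and 1.02 without chromosome 10, so that single chromosomes decided its side of 1. In the densest class, with 30 or more genes per Mb, the ends had a level of 1.27 (1.23 to 1.31), against 1.36 (1.35 to 1.37) in the rest. Without chromosome 10 the ends had 1.47 in this class. In the sparsest class, under 5 genes per Mb, the ends had 0.740 (0.721 to 0.759), against 0.771 (0.769 to 0.773) in the rest. The class of 10 to 20 genes per Mb had 1.36 (1.32 to 1.40) in the ends, against 1.22 (1.22 to 1.22) in the rest.

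**Figure D4:**
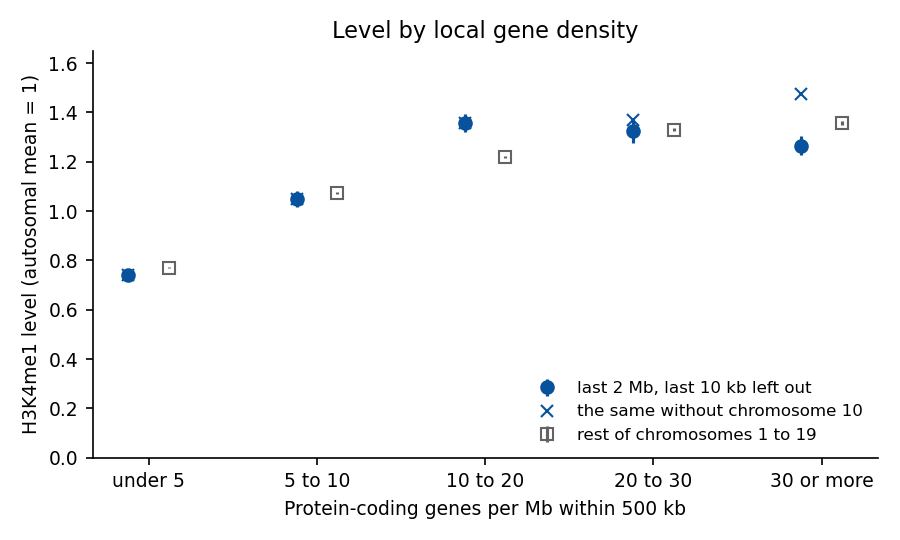
Level of H3K4me1 fragments by the number of protein-coding genes per Mb within 500 kb, for 10 kb bins of the last 2 Mb (filled points, and crosses without chromosome 10) and of the rest of chromosomes 1 to 19 (open squares), with 95% intervals for counting error. Level increases with gene density up to 20 genes per Mb in both, and the densest bins of the ends stand at 1.27, or 1.47 without chromosome 10, against 1.36 in the rest.

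Several ends lay well above or below bins of like gene density. The end of chromosome 7 was as dense in genes as its rest, with 14 genes per Mb against 14.2, yet at equal gene density its ratio was 1.62 (1.55 to 1.70), the highest of the 19. The end of chromosome 10, the densest with 42 genes per Mb, had 0.480 at equal density (0.449 to 0.513), the lowest. Chromosome 13 had 0.571 (0.528 to 0.618) and chromosome 17 had 0.690 (0.637 to 0.746). Chromosome 15, with 26 genes per Mb, had 0.722 (0.683 to 0.763), although its ratio to the whole rest was above 1. Over all ends, this ratio had an interval above 1 on 7 chromosomes and below 1 on 8.

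On chromosome 7 the end carries the distal part of the imprinted domain of Kcnq1, genes expressed from the copy of 1 parent, and further out a group of fibroblast growth factors. The stretch from Cdkn1c, an inhibitor of the cell cycle, to Osbpl5 (chr7:143458339-143757008) had a level of 1.76 (1.56 to 1.97), above 1 in 12 of 13 libraries, with a lowest of 0.964, a median of 1.75 and a highest of 2.67. Within it the nucleosome assembly gene Nap1l4 had 2.07 (1.52 to 2.74) and the lipid transfer gene Osbpl5 had 1.94 (1.54 to 2.42), while Cdkn1c had 1.15 (0.374 to 2.69) from 5 fragments. Of the 9 genes of the stretch, 5 were counted for the domain, with a median of 1.89. The others were Cars with 2.23, Tnfrsf26 with 1.77, Tnfrsf22 with 1.79 and Tnfrsf23 with 1.60. The whole end of chromosome 7 had a level of 1.70, inside the interval of the stretch, and a median of 1.74 over its genes. The synapse scaffold gene Shank2, which spans 448 kb with no other gene, had 1.45 over its body (1.30 to 1.60).

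From Fgf3 to Ccnd1 (chr7:144838612-144939831), a stretch of 101 kb, the level was 2.14 (1.78 to 2.56) from 122 fragments of 13 libraries. The libraries ranged from 0.304 to 5.10 with a median of 1.93, and 10 of 13 lay above 1. Gene levels, which include flanks of 2.5 kb, were 2.74 (1.53 to 4.52) at Fgf3, a factor of inner ear development, 2.61 (1.39 to 4.46) at Fgf4, whose promoter is printed above, and 2.08 (1.04 to 3.72) at Fgf15, an intestinal hormone that limits bile acid synthesis. Ccnd1, the G1 cyclin D1, had 1.19 (0.573 to 2.20) from 10 fragments.

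The other members of this family in the ends lay on low ends. Fgf10, a lung and limb factor on chromosome 13, had a level of 0.537 (0.347 to 0.792), and Fgf14, a neuronal regulator of sodium channels and the last gene of chromosome 14, had 0.442 (0.379 to 0.513). The family's median was 2.08 over 5 genes, yet its summed level was 0.521, because Fgf14 is long.

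On chromosome 10 the end is filled by odorant receptors, which are expressed in olfactory neurons. The cluster (chr10:128989914-130211128) spans 1221 kb with 59 protein-coding genes and had a level of 0.624 (0.566 to 0.686). It lay below 1 in all 13 libraries, from 0.458 to 0.979 with a median of 0.602. The part of the window before the cluster, 395 kb with 19 genes such as the cell cycle kinase gene Cdk2 and the pigment gene Pmel, had 1.29 (1.14 to 1.44). It was equally dense, at 48.1 genes per Mb, against 48.3 in the cluster. Beyond the cluster, where the vomeronasal receptors Vmn2r84 to Vmn2r87 lie, the level was 0.718 (0.608 to 0.842).

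Over all 58 genes named Olfr in the ends, all on chromosome 10, the median gene level was 0.300, 15 had 0 fragments, and the summed level was 0.566. Their windows are short, so that a single fragment gives about this level. At the 1045 Olfr genes elsewhere on the autosomes the median was 0.598, and such genes can share reads with close copies. The 6 Vmn2r genes in the ends of chromosomes 4, 5 and 10 had a median of 0.634, from 0.466 at Vmn2r87 to 0.979 at Vmn2r85. This was above the median of 0.398 at the 115 Vmn2r genes elsewhere on the autosomes. The promoters of the 47 Olfr genes with a sequence had 0 to 2 CpG and a median of 1, while those of the ends of chromosomes 4 and 11 had medians of 19 and 23.

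On chromosome 15 the end includes the Hoxc cluster, homeobox genes that set position along the body axis. The cluster (chr15:102921131-103036856) had a level of 1.23 (0.975 to 1.53), above 1 in 8 of 13 libraries. Its libraries ranged from 0 to 3.02 with a median of 1.11, so that the cluster did not stand out from the level of 1.19 (1.10 to 1.28) before it and 1.07 (0.977 to 1.16) after it. The 9 Hoxc genes had a median of 1.12, from 0.573 at Hoxc9 (0.156 to 1.47) to 1.94 at Hoxc10 (0.967 to 3.47). In the same end, further inward, the keratin genes Krt78, Krt8 and Krt18, filament genes of epithelia, had levels of 1.79, 1.69 and 1.01.

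**Figure D5:**
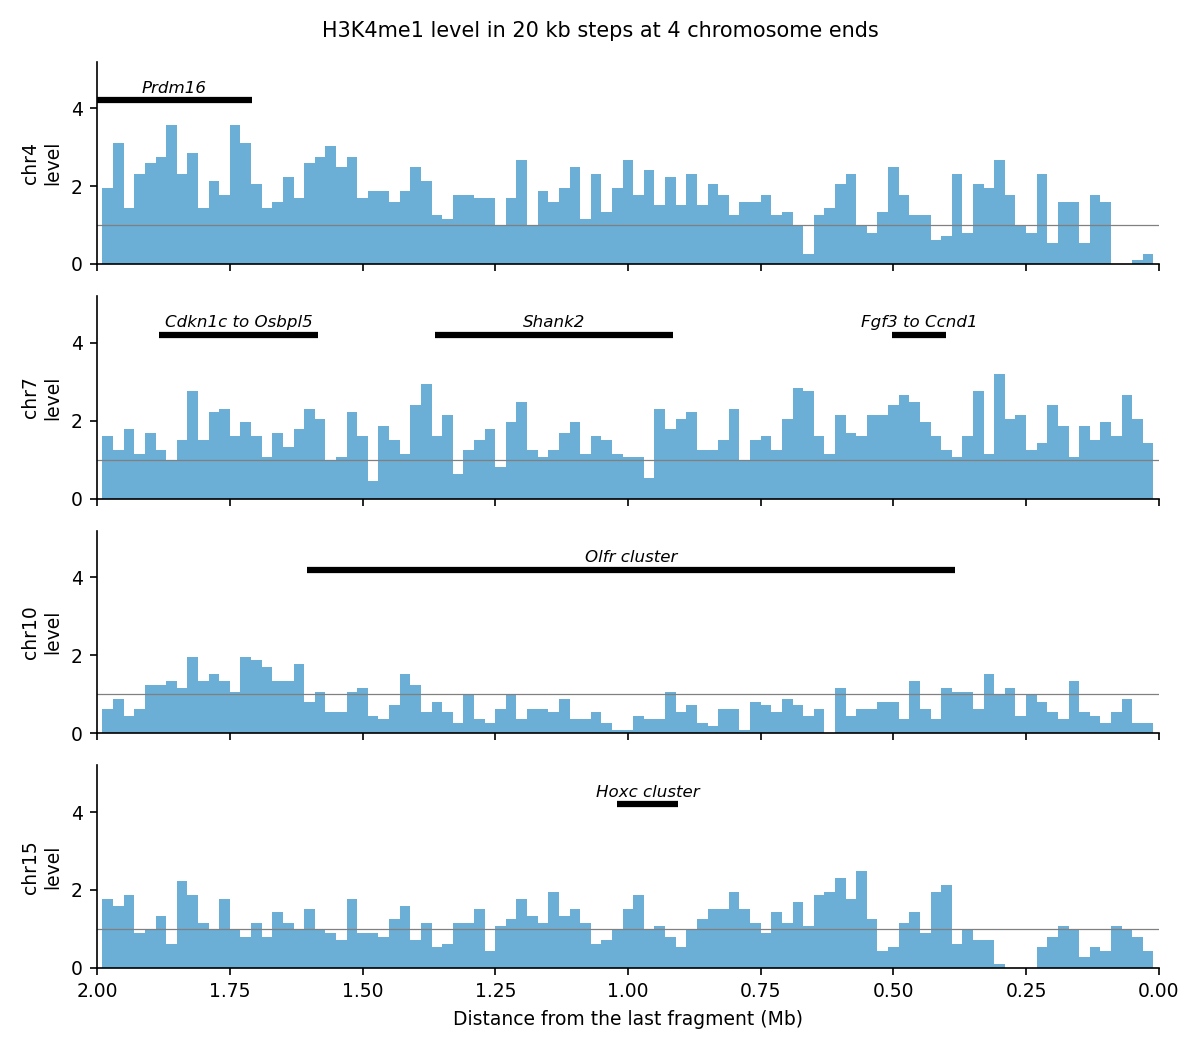
Level of H3K4me1 fragments in steps of 20 kb over the last 2 Mb of chromosomes 4, 7, 10 and 15, by distance from the last fragment with the end at the right, last 10 kb left out; black bars mark gene stretches and grey lines the autosomal mean. The bars show Prdm16 at 2.49, Fgf3 to Ccnd1 at 2.14, the Olfr cluster at 0.624 and the Hoxc cluster at 1.23.

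The end of chromosome 4 holds most of Prdm16, a transcription regulator of brown fat with a histone methyltransferase domain. The 292 kb of this gene inside the window had a level of 2.49 (2.25 to 2.74) from 408 fragments, above 1 in all 13 libraries, from 1.80 to 3.34 with a median of 2.52. It held 5 enriched bins. Further out on this chromosome the Wnt transducer Dvl1 had 2.84 (1.87 to 4.14), the tubulin glycylase gene Ttll10 had 2.54 (1.72 to 3.63) and the Fanconi anaemia gene Faap20 had 2.53 (1.56 to 3.86). Gabrd, a subunit of the GABA receptor named after its value was seen, had 2.45 (1.59 to 3.62).

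A bin was called enriched when it reached 3 times the autosomal mean and held 20 or more fragments that came from 5 or more libraries. The minimum of 20 fragments was the stricter condition, at 3.56 times the mean. Among the 3800 bins of the ends 44 were enriched, or 1.16% (0.843% to 1.55%), and the background over all autosomal bins was 0.538%. The count rests on depth, with 24 without library 5-4, 26 without 5-3, 27 without 4-5 or 5-7 and 29 without 5-10. Of these, 11 were the last bin of a chromosome, 10 of them with stacked fragments. Away from the last bin 33 of 3781 were enriched, 0.873% (0.602% to 1.22%), against 0.529% (0.50% to 0.559%) in the rest and 1.23% (0.959% to 1.55%) from 2 to 5 Mb. Of the 33, 31 lay on chromosomes 2, 4, 7, 9 and 11, which were named because they held most of these bins. Every end has the same number of bins. A protein-coding gene was overlapped by 23 of the 33, and the share of all bins that overlap one was not counted here. Empty bins made up 4.50% of the ends (3.86% to 5.21%), against 4.10% in the rest (4.02% to 4.18%), with a background of 4.1% over all autosomal bins.

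The highest bin other than a last bin overlapped one end of Lars2, a mitochondrial leucyl-tRNA synthetase, on chromosome 9 (chr9:123460868-123470867), and its 28 fragments, which came from 9 libraries, gave it a level of 4.98 (3.31 to 7.20). The next, also on chromosome 9 (chr9:124250868-124260867), overlapped no protein-coding gene and had 4.80 (3.17 to 6.99). Its 27 fragments came from 5 libraries, all named 5, with 44.4% from 1 library and up to 5 over a base. On chromosome 2, bins between genes reached 4.63 (3.02 to 6.78), and a bin at Cables2, a partner of cyclin-dependent kinases, reached 4.27 (2.74 to 6.35). Fasn, the fatty acid synthase, had a bin of 4.09 (2.59 to 6.14) on chromosome 11, as had Gata5, a factor of endoderm and heart, on chromosome 2. Bins at Bahcc1 on chromosome 11 reached 3.91 (2.45 to 5.93).

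Under the same minimum of fragments and libraries, the 15 highest genes of the ends lay on chromosomes 2, 4, 11 and 15. Ogfr led with 28 fragments in 11 libraries and a level of 4.36 (2.90 to 6.30). Cables2 followed with 3.75 (2.70 to 5.06), and Rbbp8nl, which lies beside it, had 2.99 (2.06 to 4.20). Their windows overlap, so that both levels can count the same fragments. Also on chromosome 2, Arfgap1, a regulator of Golgi traffic, had 2.80 (1.92 to 3.96), Gata5 had 2.77 (1.78 to 4.12), Ss18l1, a chromatin remodelling gene of neurons, had 2.5 (1.83 to 3.34) and Nkain4 had 2.47 (1.72 to 3.44).

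On chromosome 11 the 4 genes among these were Lrrc45 with 3.20 (2.00 to 4.84), Bahcc1 with 3.07 (2.52 to 3.69) from 111 fragments, Fasn with 2.79 (1.98 to 3.83) and Hgs, which sorts receptors at endosomes, with 2.58 (1.75 to 3.66). On chromosome 15 it was Tns2, a focal adhesion gene, with 2.48 (1.70 to 3.51). The best counted, Bahcc1, had levels of 4.65 over the libraries named 4 and 2.72 over the others. For Gata5 the order was the other way, with 0.647 from 1 fragment of libraries named 4 and 3.23 over the others.

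Among genes where the autosomal mean would give at least 20 fragments, which admits long genes only, the 5 lowest were Tmem196 with 0.400 (0.237 to 0.632), Fgf14, Tmem267 on chromosome 13 with 0.447 (0.306 to 0.631), Depdc1a on chromosome 3 with 0.450 (0.216 to 0.827) and Bicd1, a dynein adaptor on chromosome 6, with 0.502 (0.366 to 0.672). Tmem267 had 0 of its 32 fragments in libraries named 4, which allows a level of up to 0.235 there at 3 fragments.

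Of 244 genes of the ends with at least 10 expected fragments, 24 had a level of 2 or more, or 9.84%, and the background over autosomal protein-coding genes was 10.8%. At 0.5 or less there were 11, or 4.51%, with a background of 4.68%. Both shares were near the background. Of the 24, 20 lay on chromosomes 2, 4, 7 and 11, whose ends held 30, 27, 16 and 24 of the 244 genes. The median level of all 504 genes was 1.26, against 1.21 for 20052 genes elsewhere. Without the Olfr and Vmn genes the ends had 1.35. This is not to be set against the 1.21, which keeps such genes elsewhere. Around the starts of genes with a promoter sequence the level within 1 kb was 1.10 (1.01 to 1.21) in the ends, below the 1.29 (1.25 to 1.32) at 2 to 10 kb, as it was elsewhere, with 1.09 (1.07 to 1.10) and 1.25 (1.25 to 1.26).

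Of the last protein-coding genes of the 19 chromosomes, 12 had a level below 1, and the background over all autosomal protein-coding genes was 35.3%. The interval lay below 1 at 5 of them, with a background of 6.81%, and above 1 at 2, with a background of 29.7%. Among all 504 genes of the ends the 3 shares were 34.1%, 5.36% and 29.8%. Cr2, a complement receptor and the last gene of chromosome 1, had 0.513 (0.273 to 0.878), and the sensory receptor gene Mrgprd on chromosome 7 had 1.00 (0.432 to 1.97), or 1.67 with 5 kb on each side. The highest was Ppp2r3d on chromosome 9, with 2.84 (1.47 to 4.96) from 12 fragments. Wls, which carries Wnt proteins to the cell surface and is the last gene of chromosome 3, had 1.89 (1.55 to 2.28). Its flank reaches the pile-up at the chromosome end, and its body alone had 0.611.

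Among the families in the ends, the tumour necrosis factor receptors had a median of 1.84 over 6 genes of chromosomes 4 and 7. They ranged from 1.60 at Tnfrsf23 to 2.22 at Tnfrsf4, against a median of 1.53 over 14 genes elsewhere. Over all their genes, the ends of chromosomes 4 and 7 had medians of 1.69 and 1.74. Solute carriers had a median of 1.72 over 8 genes, from 0.758 at Slc6a20a to 1.97 at Slc38a10, against 1.38 elsewhere. They lay in the ends of chromosomes 2, 4, 7, 9 and 11, whose medians over all genes were 1.69, 1.69, 1.74, 1.13 and 1.73. Zinc finger genes named Zfp had 1.12 over 9 genes, from 0.312 at Zfp740 to 2.47 at Zfp512b, against 1.03 elsewhere.

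The end of chromosome 13 carries a multi-copy group around Tcstv1 and Tcstv3, genes expressed in the 2-cell mouse embryo. From AF067063 to 10 kb before the end (chr13:119827961-120311571) the level was 0.50 (0.420 to 0.592), below 1 in all 13 libraries. The libraries ranged from 0.115 to 0.740 with a median of 0.529. The 1506 kb before it, with Fgf10 and the cholesterol synthesis gene Hmgcs1, had 0.583 (0.533 to 0.637), so that the low level of this end was not limited to the multi-copy stretch. At 33 of 200, empty bins were more numerous here than at any other end. The 6 genes counted as the group had a median of 1.17, with 2 to 14 fragments each. The stretch holds 10 genes, and not all were counted in the group. Of those left out, Gm21761 had 1.38 (0.449 to 3.23) and Gm21818 had 1.10 (0.299 to 2.81). Gm20767 had 0.266 (0.0548 to 0.776), Gm21188 had 0.236 (0.0487 to 0.690) and Gm36079 had 0 fragments. Tcstv3 itself, within the last 10 kb, had 1.11 (0.303 to 2.85). With 5 kb on each side, its window reached the pile-up of the chromosome end and its level was 9.35. Near-identical copies can share reads, so these gene levels are uncertain, and the sources used here name no aligner.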

How the data were processed

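H3K4me1 was profiled by CUT&Tag in single zygotes. The authors deposited 1 table of fragments whose count column is 1 in every line, so it records no duplicate reads. The submitters' processing notes name mm10. No aligner, filter or removal of duplicates is named in the sources used here. Lines were counted, each placed by its midpoint, and 5 repeated lines were kept. Library names carry no batch, so libraries were pooled. Bins of 10 kb were counted back from the pool's last fragment. Equal gene density compares each bin with bins of its own chromosome in the same class of protein-coding genes within 500 kb, with class limits of 5, 10, 20 and 30 per Mb. Gene levels cover the gene with 2.5 kb on each side. Named genes are the last gene of each autosome, the 15 highest (20 or more fragments, 5 or more libraries), the 5 lowest with 20 or more expected, symbol families with at least 3 members and genes over the highest bins; other genes were named after their values were seen. Olfr, Vmn2r, Kcnq1 domain and Tcstv groups and the gene stretches were added from their positions. The members and lists were chosen with earlier results of these data known. Intervals are exact Poisson for levels, exact binomial (Clopper-Pearson) for shares and conditional exact for ratios between stretches, while ratios to the rest take the level of the rest as fixed. The ratio was tested on simulated data. Python 3.11.15, numpy 2.4.6, pandas 2.3.3, scipy 1.17.1 and matplotlib 3.10.9 were used.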

Additional observations from a re-analysis of the deposited data

Results flagged for a closer look

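Outside the autosomes, the last kilobase before the last fragment of chromosome X held 116 fragments from 14 libraries, with a median length of 39 bp, while that of chromosome Y held 1. Among the libraries left out for low depth, library 4-1 had 7 of its 672 fragments in the last kilobases of the autosomes, or 1.04% (0.420% to 2.13%).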

How the results depend on the processing

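No paired analysis was possible because the table pools both batches and the labels tie no library to a batch. The ratio of the ends to the rest, 1.13, was 1.10 for the last 1 Mb, 1.20 for the last 5 Mb, 1.21 with libraries weighted equally and 1.19 in libraries named 4 alone. It was 1.06 without bins above 10 times the mean, 1.06 without the last 100 kb and 1.05 without the last 10 kb, the last chosen after seeing the data. At equal gene density the ratio was 1.05. There the last 1 Mb, the last 5 Mb, equal weighting and libraries named 4 gave 1.03, 1.11, 1.13 and 1.11. Without bins above 10 times the mean it was 0.987 (0.974 to 0.9997), and without the last 10 kb it was 0.976 (0.964 to 0.989). Without the last 100 kb it was 0.993 (0.980 to 1.006), an interval that spans 1. Leaving out 1 chromosome or library gave 1.10 to 1.17 for the ratio and 1.02 to 1.09 at equal gene density. Equal weighting gives the shallow library 5-11, with a ratio of 2.15, as much weight as each other library. The others ran from 1.07 to 1.24. At 5 times the mean the 44 enriched bins became 11, each of them the last bin of a chromosome. The highest other bin stood at 4.98. When 1 library was left out, the 44 became 24 to 44. There were 24 without library 5-4, 26 without 5-3, 27 without 4-5 or 5-7 and 29 without 5-10. Fewer fragments meet the minimum of 20 then. Named gene levels moved by over 1.5 times with 5 kb on each side at Tcstv3 (9.35, against 1.11), Mrgprd (1.67, against 1.00) and Vmn2r129 (1.06, against 0.664). With the gene body alone they did so at Gm21814 (0.177, against 1.40), Gm32856 (0.230, against 0.568) and Wls (0.611, against 1.89). With a mean of 5.62 fragments per bin, single bins and short genes carry wide intervals.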
